A study of Mus musculus with 72 samples.

Results

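The genes described here are those of mouse chromosome 8 in iXist-ChrX-Dom (Dom line) and iXist-ChrX-Cast (Cast line) cells. Members were all genes that the count files place on chromosome 8, less 4 that were left out by name, which gave 1079 of the 22556 genes in the files. A gene entered the allelic comparisons if every library held at least 30 fragments assigned to an allele, and 450 of the 1079 did. Total RNA was compared for the genes that passed a filter on low counts, which were 812 in the WT comparison, 825 in the knockout comparison and 799 on late days.

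The cells were female mouse embryonic stem cells (mESCs) of a Dom/129S x Cast cross, so that nearly every gene is present as a Dom and a Cast allele that differ in sequence. In both lines a TetOn promoter replaced the endogenous promoter of Xist, the non-coding RNA that silences the X chromosome it is made from, on the 129S allele in the Dom line and on the Cast allele in the Cast line. Doxycycline induced Xist while the cells were differentiated into neural precursor cells (NPCs), and chromatin-associated RNA was sequenced (ChrRNA-seq), which reads mostly nascent transcripts. Libraries were made from each parental line (WT) and from clones without SmcHD1, a chromosomal protein of the inactive X: clone A3 in the Dom line and clones D5 and G6 in the Cast line.

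Dom WT and A3 each had 8 replicates on days 2, 3, 5 and 7 of induction and differentiation, Cast WT had 11, and D5 and G6 had 8 each. Days 15, 21 and 35 had 1 replicate in each of the 5 sets, and day 52 had 1 in Dom WT and 1 in A3. Uninduced mESC libraries were analysed for the knockout clones only (2 of A3, 2 of D5 and 1 of G6). Each line and each knockout is 1 clone, so a difference between the lines and a difference between clones cannot be told apart. The study describes the first-week replicates as repeated time courses. The tests count each replicate of each day as independent, although libraries of 1 time course may deviate together. Their p-values therefore measure the spread between replicates of a day within the same clones, and not between independent clones or whole time courses.

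In a diploid cell a gene's RNA comes from both alleles in a ratio set by sequence differences between them and by how many copies of each are present. Most genes change their output in proportion to copy number, as is known from trisomies and from tumour cells, while a feedback that holds a gene's level constant is uncommon and known mainly for X-linked genes. The share of allelic fragments that carry the Cast sequence (Cast share, from 0 to 1, where 0.5 is equal output) therefore reads the balance between the alleles inside a library, and it does not depend on the depth of that library or on the other genes in it. Total RNA, given as a gene's fragments per 1000000 counted fragments (RPM), reads the sum.

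Depth ranged from 9344054 to 56290046 counted fragments per replicate. ES cell marker genes (Pou5f1, Nanog and 4 others) summed to 1092 to 1490 RPM in the mESC libraries, to 75.4 to 536 RPM on days 2 to 7 and to at most 177 RPM later. NPC markers (Nes, Pax6 and 4 others) summed to 354 to 550 RPM in the mESC libraries and to 150 to 529 RPM on days 2 to 7. Later they summed to 171 to 1576 RPM, so the NPC marker sum did not separate the stages. Collagen and other fibroblast genes, the markers of the feeder cells, summed to at most 144 RPM on days 2 to 7 but to 243 to 16141 RPM on days 15 to 52, so the late libraries also held strong mesenchymal gene expression. Its part in the late results was not tested. Among the Cast WT libraries, those of replicate 1 stood apart on the distal part of chromosome 8: the median Cast share of the 218 measured genes past 80 Mb was 0.497 to 0.513 in its 7 libraries, 0.484 to 0.493 in the 4 of replicate 2 and 0.492 to 0.496 in the 3 of replicate 3. Before 80 Mb the 232 measured genes lay at 0.473 to 0.494 in all 14 libraries.

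A few promoters are printed here because they belong to a run of neighbouring genes, Tk2 to Pdp2, whose allelic balance differed between the Dom line clones, and to Cbfb, the next measured gene beyond that run, whose balance did not. Each is 250 bases before to 50 bases after a RefSeq transcription start (GRCm38.p6, which is mm10), in the direction of the gene, in lower case with GC boxes (GGGCGG, or CCGCCC on the other strand) in capitals. The windows are chr8:104248509-104248808 on the minus strand for Tk2, chr8:104250611-104250910 on the plus strand for Cklf, chr8:104395758-104396057 on the minus strand for Cmtm4, chr8:104591222-104591521 on the plus strand for Pdp2 and chr8:105170424-105170723 on the plus strand for Cbfb.
Tk2: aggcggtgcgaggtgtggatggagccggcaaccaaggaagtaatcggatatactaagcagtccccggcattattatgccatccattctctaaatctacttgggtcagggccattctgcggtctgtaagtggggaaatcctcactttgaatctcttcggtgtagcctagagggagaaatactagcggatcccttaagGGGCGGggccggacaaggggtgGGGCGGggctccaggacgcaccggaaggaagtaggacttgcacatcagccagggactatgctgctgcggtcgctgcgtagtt
Cklf: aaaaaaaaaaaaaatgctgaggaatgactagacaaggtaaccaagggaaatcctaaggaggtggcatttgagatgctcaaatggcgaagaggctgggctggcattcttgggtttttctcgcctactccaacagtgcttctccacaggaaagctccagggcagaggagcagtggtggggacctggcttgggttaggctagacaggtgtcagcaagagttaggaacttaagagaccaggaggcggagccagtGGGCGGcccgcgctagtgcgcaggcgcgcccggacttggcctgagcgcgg
Cmtm4: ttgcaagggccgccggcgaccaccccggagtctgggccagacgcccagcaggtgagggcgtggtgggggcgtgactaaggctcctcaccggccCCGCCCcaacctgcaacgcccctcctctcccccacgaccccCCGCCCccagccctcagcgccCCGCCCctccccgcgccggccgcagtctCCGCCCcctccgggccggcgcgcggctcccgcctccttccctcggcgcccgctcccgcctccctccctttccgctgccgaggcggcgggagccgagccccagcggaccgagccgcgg
Pdp2: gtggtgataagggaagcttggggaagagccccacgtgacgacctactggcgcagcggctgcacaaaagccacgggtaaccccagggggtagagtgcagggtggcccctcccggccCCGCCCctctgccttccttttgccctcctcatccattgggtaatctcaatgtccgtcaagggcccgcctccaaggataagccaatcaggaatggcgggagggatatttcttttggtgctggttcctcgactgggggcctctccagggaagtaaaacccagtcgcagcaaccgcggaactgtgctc
Cbfb: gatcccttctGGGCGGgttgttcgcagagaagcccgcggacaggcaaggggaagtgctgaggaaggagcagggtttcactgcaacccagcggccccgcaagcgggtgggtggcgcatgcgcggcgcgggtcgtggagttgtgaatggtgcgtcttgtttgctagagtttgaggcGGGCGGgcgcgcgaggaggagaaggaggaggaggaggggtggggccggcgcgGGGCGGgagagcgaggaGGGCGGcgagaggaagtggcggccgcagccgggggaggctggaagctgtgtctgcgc
All 5 windows held at least 1 GC box (2 in Tk2, 1 in Cklf, 4 in Cmtm4, 1 in Pdp2 and 4 in Cbfb). Among all 32851 RefSeq promoters 35.7% held a GC box. Of the 810 chromosome 8 members with a promoter, 52.2% had one. The first percent is over promoters and the second over genes, so they are not of like units. CpG dinucleotides numbered 16, 12, 38, 14 and 30 in the same order, against a median of 7 over all promoters. The cyclic AMP response element core TGACGT was in none of the 5 windows (7.51% of all promoters, 10.0% of the 810 members). The NRF1 core GCGCATGC was in that of Cbfb (2.71% and 4.44%). Both strands were searched. The fifth gene of the run, Dync1li2, is named only.

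Chromosome 8 as a whole was tilted towards the Cast allele in the Dom line. The median Cast share over the 450 genes was 0.646 to 0.652 in the 8 Dom WT replicates of days 2 to 7 (mean 0.648 ± 0.00207, SD) and 0.484 to 0.501 in the 11 Cast WT replicates (0.492 ± 0.00505). In the knockout clones it was 0.644 to 0.653 in A3, 0.485 to 0.492 in D5 and 0.482 to 0.489 in G6. No replicate of the Dom line fell into the range of the Cast line. The within-day difference was 0.156 between the WT sets (exact two-sided permutation test of the line within day, 6000 arrangements, p = 0.000167, adjusted p = 0.000333 over 8 tests) and 0.162 between A3 and D5 with G6 (50625 arrangements, p = 1.98e-05, adjusted p = 7.9e-05). Same-numbered D5 and G6 replicates of a day deviated together from their means (r = 0.410 to 0.815 across genes over the 4 days), so these 16 replicates are not independent. With each such pair averaged to 1 value, the difference was again 0.162 (exact permutation test, n = 8 and 8, p = 0.00154, the smallest that 1296 arrangements allow). A3 and Dom WT differed by 0.00101 (exact permutation test, p = 0.29), which is less than the SD between replicates of either.

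The tilt was also present in uninduced mESCs of the knockout clones. The A3 mESC libraries had a median share of 0.6445 and 0.6455, against 0.487 and 0.516 in D5 and 0.478 in G6, a difference of 0.151. The exact permutation test gave p = 0.1, the smallest that 10 arrangements allow. On days 15 to 35 the median share was 0.654 to 0.656 in Dom WT and 0.647 to 0.669 in A3, against 0.487 to 0.503 in the 9 Cast line libraries.

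The amount of chromosome 8 RNA differed in the same direction. Members took 5.14% to 5.53% of all counted fragments in Dom WT on days 2 to 7 (mean 5.36% ± 0.144) and 3.48% to 4.15% in Cast WT (3.82% ± 0.201), a within-day difference of 1.52 percentage points (exact permutation test, p = 0.000167, adjusted p = 0.000333). They took 5.16% to 5.76% in A3 and 3.50% to 4.02% in D5 and G6, a difference of 1.75 points (exact permutation test, p = 1.98e-05, adjusted p = 7.9e-05, and p = 0.00154 with D5 and G6 averaged). In mESCs the A3 libraries were at 5.05% and 5.09% and the D5 and G6 libraries at 3.37% to 3.67%. On days 15 to 35 Dom WT was at 4.99% to 5.24% and Cast WT at 4.30% to 4.52%, closer together than in the first week, while A3 was at 5.10% to 5.52% and D5 and G6 at 3.71% to 4.10%. The change of these gaps with time was not tested.

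**Figure D1:**
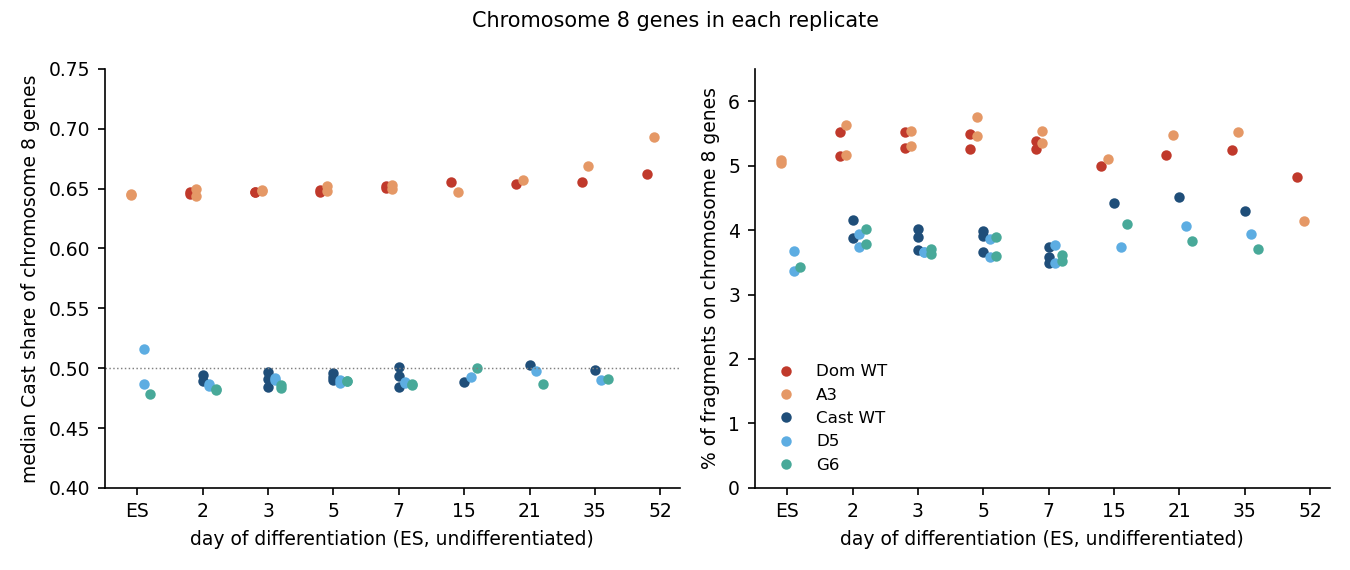
Left, median Cast share (0 to 1) over the 450 measured chromosome 8 genes in each replicate, by day of differentiation, with a dotted line at 0.5; right, the percent of all counted fragments that fell on chromosome 8 genes. Each point is a replicate of Dom WT, A3, Cast WT, D5 or G6, and on days 2 to 7 the Dom line lay at 0.644 to 0.653 and the Cast line at 0.482 to 0.501.

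Gene by gene the shift was nearly uniform. In the limma fit of Cast share for Dom WT against Cast WT on days 2 to 7, 448 of the 450 genes were higher in Dom WT at an adjusted p below 0.05 and none was lower (none at an unadjusted p below 0.05, and none by edgeR on the allele counts), where 11.1% of all 7867 autosomal genes tested were called higher. The median difference was 0.154 (quartiles 0.140 and 0.168), against -0.000662 over the 7417 other autosomal genes. In A3 against D5 and G6 the count was 444 (10.9% of all genes) with a median of 0.160 (445 with D5 alone and 442 with G6 alone), and on days 15 to 35 it was 442 (8.36%) with a median of 0.161. The difference was above 0 for all 450 genes in each of the 3 fits. The highest Cast WT replicate lay below the lowest Dom WT replicate for 390 genes, against 5.28% of all genes apart in that direction. For A3 above the Cast line knockouts the count was 391 genes (6.89% of all genes). Without the Cast WT replicate 1 libraries the median WT difference was 0.158.

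The size of the shift varied little with depth or gene length, and was smallest for genes with the highest Cast share in the Cast line. Over 4 equal bins of allelic depth the median WT difference ran from 0.149 in the bin with the fewest fragments to 0.157 in that with the most, and over 4 bins of gene length from 0.152 to 0.156. By Cast share in the Cast line it was 0.164, 0.155, 0.156 and 0.141 from the lowest to the highest bin. In the knockout comparison these bins had medians of 0.164, 0.164, 0.161 and 0.154. Along the chromosome the WT medians were 0.168, 0.161, 0.145 and 0.144 from the proximal to the distal bin. Without Cast WT replicate 1 they were 0.166, 0.160, 0.152 and 0.151. The knockout comparison gave 0.159, 0.158, 0.160 and 0.165 over the same bins, with no such decline.

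**Figure D2:**
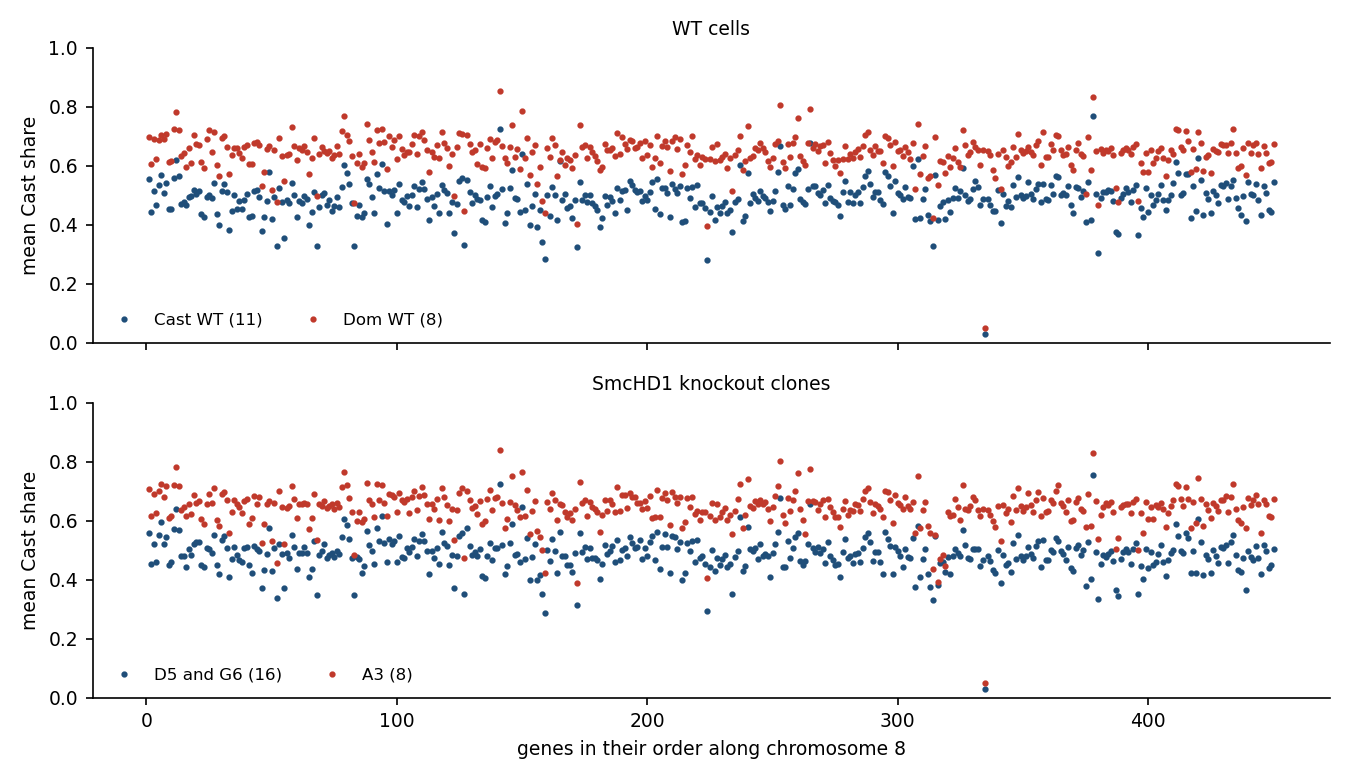
Mean Cast share (0 to 1) of each of the 450 chromosome 8 genes in order of position on days 2 to 7, with Cast WT (n = 11) and Dom WT (n = 8) above and D5 with G6 (n = 16) and A3 (n = 8) below. Each gene has a red point for the Dom line and a blue point for the Cast line, and the red band lies above the blue by a median of 0.154 (top) and 0.160 (bottom), except in the short run of genes of the lower panel where both meet. The pair of points near 0 is Nfatc3.

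The genes with the most allelic fragments included Pard3, Tenm3 and Large. Pard3, a cell polarity scaffold at the junctions of epithelial and neural precursor cells, had a Cast share of 0.585, 0.611 and 0.624 (lowest, median, highest) in Dom WT and of 0.431, 0.453 and 0.474 in Cast WT. Tenm3, a teneurin adhesion protein of developing neurons, was at 0.655, 0.692 and 0.698 against 0.457, 0.510 and 0.533. Large, a glycosyltransferase that modifies dystroglycan, was at 0.547, 0.608 and 0.640 against 0.366, 0.420 and 0.457. None of these 3 genes overlapped between the lines, although their own balance in the Cast line differed: Large leaned towards Dom and Tenm3 was near equal.

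Kars, a lysyl-tRNA synthetase, had the highest mean share in the Cast line. Its share was 0.726, 0.765 and 0.819 in Cast WT and 0.794, 0.825 and 0.873 in Dom WT, a difference of 0.0655 ± 0.0138 (SE, limma adjusted p = 0.00137). On the scale of the log2 ratio of Cast to Dom fragments that difference was 0.60, against a median of 0.92 over the 450 genes. Among members whose share moved most between replicates of a set was Cdh11, a cadherin of mesenchymal and neural cells, whose share ranged from 0.205 to 0.613 in Dom WT and from 0.107 to 0.522 in Cast WT. Its total level ranged from 5.94 to 165 RPM in Dom WT.

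The largest shift belonged to Ankrd10, an ankyrin repeat gene, whose share was 0.651, 0.727 and 0.779 in Dom WT against 0.447, 0.490 and 0.565 in Cast WT (difference 0.216 ± 0.00669, SE, limma adjusted p = 1.09e-13). Vegfc, a growth factor of lymphatic vessels, was next, at 0.547, 0.646 and 0.657 against 0.342, 0.413 and 0.464. Gas6, a ligand of the TAM receptor kinases, was at 0.611, 0.657 and 0.722 against 0.414, 0.433 and 0.553. In A3 against D5 and G6 the differences of these 3 genes were 0.184, 0.157 and 0.171, nearer to the median of all members. By the criterion used here, that both 95% intervals lie past 1.5 times the median shift, no gene exceeded the shift of the chromosome.

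The difference lay in the Cast allele. Scaled to the total counts of each library, Cast allele RNA was higher in Dom WT for 437 of 450 genes at an adjusted p below 0.05 (edgeR, 15.2% of all genes called higher), with a median log2 fold change of 0.87, which is a fold of 1.83. In A3 against D5 and G6 it was higher for 436 (13.8%), with a median of 0.98, a fold of 1.98. Dom allele RNA had a median log2 fold change of -0.037 in WT, where 14 genes were higher and 49 lower (17.8% of all genes called in either direction), and of 0.023 in the knockout clones, where 39 were higher and 19 lower (12.4%). With library totals in place of TMM factors the WT Dom allele median was 0.053, with 45 genes higher and 23 lower, and that scaling also moved the median of all genes by 0.0953, so no direction is read from it.

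Total RNA followed. In Dom WT against Cast WT, 525 of 812 members were higher at an adjusted p below 0.05 (edgeR, 12.8% of all 15469 genes) and 7 were lower (13.5%), with a median log2 fold change of 0.47 against -0.01 over the other autosomal genes. In A3 against D5 and G6, 549 of 825 were higher (10.7%) and 3 lower (8.35%), with a median of 0.53. Leaving out 1 library moved the WT count of lower genes to 3 (without Dom WT day 3 replicate 1, or replicate 2), 4 (without Cast WT day 7 replicate 3) or 11 (without Dom WT day 7 replicate 2), and the knockout count to 7 without A3 day 7 replicate 1. Without all Cast WT replicate 1 libraries it was 14 in WT. In bulk samples, fewer cells that express a gene and less RNA per cell cannot be told apart.

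By level, in 4 equal bins, the bin of members with the lowest mean RPM had 70 of 203 called higher in WT, and the next bins had 132, 167 and 156. Their medians differed less (0.44, 0.48, 0.51 and 0.44). The lower number of calls among weakly expressed genes thus went with a wider spread of the estimates, whose quartiles were 0.14 and 0.80 in the lowest bin and 0.32 and 0.57 in the highest.

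The observed totals can be set beside 2 reference values computed from the allelic balance alone. If the Dom allele kept its level and only the Cast allele changed, the shares of the 450 genes would give a median log2 fold change of 0.52, and if the Cast allele kept its level, one of -0.39. The observed median was 0.48 in WT, and 429 of the 450 genes lay nearer to the first value than to the second (343 within 0.25 of it). In the knockout clones the observed median was 0.57 against 0.55 and -0.41, and 438 genes lay nearer to the first. The median gap to the first value was -0.036 in WT and 0.023 in the knockout clones, close to the Dom allele medians above. These counts therefore restate the allele result and are no separate check. Across genes, which are not independent replicates, the observed and first reference values had a Pearson r of 0.194 in WT and 0.028 in the knockout clones. A Cast allele with exactly 2 times its Cast line output and an unchanged Dom allele would give the genes a median share of 0.661 in WT, where 0.648 was observed, and of 0.655 in the knockout clones, where 0.651 was observed. Within 0.03 of their own reference share were 362 genes in WT and 410 in the knockout clones.

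**Figure D3:**
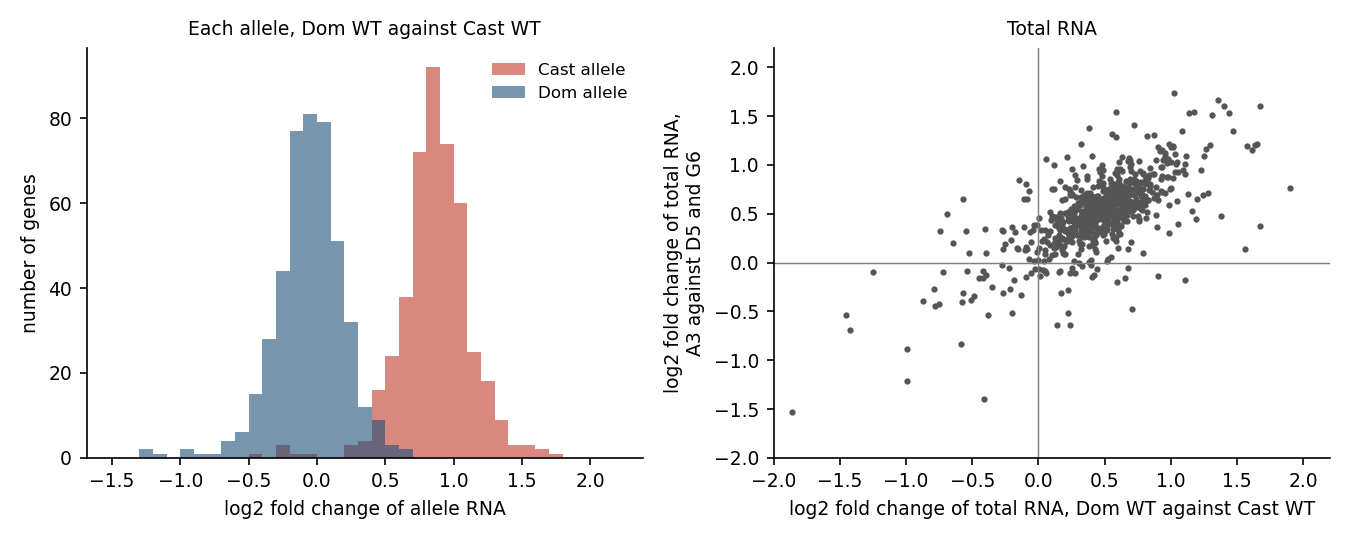
Left, distribution over the 450 genes of the log2 fold change of Cast allele and of Dom allele RNA in Dom WT against Cast WT on days 2 to 7; right, log2 fold change of total RNA for each member in WT (x axis) against A3 with D5 and G6 (y axis), with lines at 0. The Cast allele is centred at 0.87 and the Dom allele at -0.037, and most genes on the right lie in the upper right quadrant.

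The genes listed under DNA replication, repair and the cell cycle, a broad list that includes Mlkl, were all called higher in WT. The WT calls of Ing1, Mlkl and Lig4 were lost in 6, 3 and 2 of 19 fits that left out 1 library. All 25 measured for total RNA rose in Dom WT (median log2 fold change 0.56) and 24 in A3, and all 20 with enough allelic fragments had a higher Cast share in both comparisons. Mcm5, a subunit of the replicative MCM helicase, was at 171, 267 and 305 RPM in Dom WT (lowest, median, highest) and at 64.6, 138 and 209 RPM in Cast WT, with a log2 fold change of 0.78 ± 0.11 (SE, edgeR adjusted p = 7.96e-05). Its Cast share was 0.613 to 0.652 against 0.438 to 0.501, without overlap. Tfdp1, the dimerization partner of E2F factors, was at 259, 353 and 418 RPM against 117, 179 and 253 RPM, and rose by 0.81 in WT and 0.87 in the knockout comparison. Orc6 of the origin recognition complex rose by 0.47 and 0.82, and Gins3 of the GINS helicase complex by 0.72 and 0.86. The lists used here were chosen with earlier results of these data known, so their counts are descriptions. All genes counted are chromosome 8 members. Of all members, 525 of 812 were called higher in total RNA in WT and 549 of 825 in the knockout comparison (12.8% and 10.7% of all genes). Cast share was called higher for 448 and 444 of 450. Whether a list differs from the other members was not tested.

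Chromatin and transcription regulators rose in 27 of 36 measured genes in both comparisons, with none lower by edgeR (none at an unadjusted p below 0.05, none by DESeq2; median 0.42 in WT). Their Cast share was higher in 27 of 28. Cbfb, the shared subunit of the RUNX factors, was at 199, 207 and 246 RPM in Dom WT and at 100, 126 and 148 RPM in Cast WT, and rose by 0.70 in WT and 1.01 in A3. Ctcf, the insulator protein that bounds chromatin loops, was at 210, 262 and 291 RPM against 141, 185 and 267 RPM, and rose by 0.29 and 0.41. Its total level overlapped between the lines, whereas its Cast share did not (0.616 to 0.655 against 0.422 to 0.518). Smarca5, the ATPase of ISWI remodellers, rose by 0.24 and 0.46, and its Dom allele was called lower in WT (log2 fold change -0.30, edgeR adjusted p = 0.0169), a call lost with library totals (adjusted p = 0.061).

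Of the genes listed as mitochondrial and respiratory chain, 17 of 22 rose in both comparisons (median 0.52 in WT), with none lower by edgeR (none at an unadjusted p below 0.05, none by DESeq2), and all 19 with allelic data had a higher Cast share. The list is broad and also holds genes that act elsewhere, among them Vps35 of the retromer, which is in the vesicle transport list too, the cytosolic alanyl-tRNA synthetase Aars, Pgls of the pentose phosphate pathway and the amino acid transporter Slc7a6. Cox4i1, a subunit of cytochrome c oxidase, was at 47.3, 52.2 and 65.1 RPM in Dom WT against 23.7, 29.2 and 43.5 RPM in Cast WT, and rose by 0.72 and 0.61. Coq9, which acts in coenzyme Q synthesis, rose by 0.89 and 0.77. Its Cast share difference in WT was small, 0.0766 (limma adjusted p = 0.0486), and its call was lost in 16 of 19 fits that left out 1 library. In the knockout comparison that difference was 0.124, with no overlap between the lines.

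Genes of protein folding, ubiquitin and vesicle transport rose in 21 of 26 in WT and 20 in the knockout comparison (median 0.41 in WT), and all 23 with allelic data had a higher Cast share. Calr, the calcium-binding chaperone of the endoplasmic reticulum, did not pass the test for total RNA in WT (log2 fold change 0.10, edgeR adjusted p = 0.617). Its level was 118, 133 and 153 RPM in Dom WT and 68.7, 110 and 218 RPM in Cast WT, so the Cast WT replicates lay on both sides. Its Cast share did not overlap, at 0.648 to 0.703 against 0.473 to 0.568.

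Neural development genes showed the balance shift in full and the total shift in part. All 21 with allelic data had a higher Cast share in both comparisons (median difference 0.151 in WT), while 13 of 32 rose in total RNA in WT, 2 fell and 17 did not pass the test (median 0.34), and in the knockout comparison 15 rose and none fell by edgeR (1 fell at an unadjusted p below 0.05, and 1 by DESeq2). Fgfr1, a fibroblast growth factor receptor, was at 104, 127 and 202 RPM against 54.5, 85.0 and 101 RPM and rose by 0.69 and 0.84. Nrg1, a ligand of ErbB receptors, was at 54.1, 86.1 and 171 RPM in Dom WT and 42.6, 130 and 272 RPM in Cast WT, with a log2 fold change of -0.65 that did not pass the test (edgeR adjusted p = 0.0581, and 0.0145 to 0.117 over the fits without 1 library). Its Cast share was nevertheless higher in Dom WT in every replicate, at 0.598 to 0.708 against 0.486 to 0.549. Sorbs2, an adaptor of the actin cytoskeleton, fell by 0.49 on the log2 scale in WT (edgeR adjusted p = 0.00144) while its Cast share rose by 0.128. In the knockout comparison its log2 fold change was -0.35 (adjusted p = 0.0558). The other neural gene that fell in WT was Maf, a leucine zipper factor present at 0.195 RPM in Dom WT and 0.474 RPM in Cast WT on average.

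Of the genes listed for the pluripotent state, 3 were on chromosome 8 and measured, and none passed the edgeR test (none at an unadjusted p below 0.05 in WT and 1 in the knockout comparison, and none by DESeq2). Cdh1, the epithelial cadherin of mESCs, was at 304, 353 and 442 RPM in Dom WT and 232, 316 and 363 RPM in Cast WT (log2 fold change 0.18, edgeR adjusted p = 0.189). The metallothioneins Mt1 and Mt2 had log2 fold changes of 0.33 and 0.30 in WT. Over the 3 genes the median was 0.30 in WT and -0.0041 in the knockout comparison. There Cdh1 gained a call in 1 of 24 fits that left out 1 library. None of the 3 had enough allelic fragments for a share.

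Genes whose intervals placed them outside the general rise in total RNA were few. A gene with a wide interval cannot be placed by this criterion: of 812 members in WT, 525 were called higher and 743 had a log2 fold change above 0. By intervals that lay wholly below 0.235 on the log2 scale in WT and 0.268 in the knockout comparison, which are 0.5 times the median rise, 12 of 810 genes stayed below it, and 9 lay beyond 1.5 times the median in both. With allelic data among the 12 were Irs2, an adaptor of the insulin receptor, and Sorbs2. Irs2 was at 25.8, 51.4 and 122 RPM in Dom WT and 23.1, 61.0 and 141 RPM in Cast WT, with a log2 fold change of -0.22 (edgeR adjusted p = 0.289) and of -0.05 in the knockout comparison. Its Cast share of 0.647 to 0.786 against 0.482 to 0.576 was as tilted as that of other genes. Its Dom allele had a log2 fold change of -0.92 in WT (adjusted p = 0.0025) and its Cast allele one of 0.22 (adjusted p = 0.277). Most of the other 10 were weakly expressed. Pdlim3, a Z-disc protein of muscle, was at 3.00, 5.67 and 13.6 RPM against 5.46, 9.84 and 24.6 RPM and fell by 0.87 in WT, a call lost in 5 of 19 fits without 1 library. The calls of Rab20 (-0.75) and Poteg (-1.86) in WT were lost in 7 and 6 such fits. Dpep3, a dipeptidase of the germ line, fell by 0.99 in WT and 1.21 in the knockout comparison on the log2 scale, and was present at 0.04 to 0.88 RPM in the WT libraries.

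The 9 genes beyond the rise included Cars2, a mitochondrial cysteinyl-tRNA synthetase, at 19.3, 33.2 and 53.7 RPM in Dom WT and 7.33, 14.6 and 31.2 RPM in Cast WT (log2 fold change 0.93 in WT and 0.98 in the knockout comparison). Crtc1, a coactivator of CREB, was at 22.1 RPM or more in Dom WT (median 25.3 RPM) against 7.21, 11.8 and 19.8 RPM and rose by 1.01 and 1.19. Cdk10, a cyclin-dependent kinase, was at 29.0, 33.5 and 47.4 RPM against 11.7, 15.2 and 22.4 RPM and rose by 0.97 and 1.02. Crtc1 and Cdk10 did not overlap between the WT sets. Their Cast shares were 0.593 to 0.711 and 0.598 to 0.701 in Dom WT, within the range of the other members. Wdr17, a WD repeat gene, rose most in WT among those with a median above 5 RPM in Dom WT, from 1.74 to 5.46 RPM in Cast WT to 7.30 to 15.4 RPM in Dom WT (1.58 in WT and 1.19 in the knockout comparison). Exoc3l rose by 1.44 and 1.53, and Mboat4, Cmtm1 and Necab2 by 1.47, 1.67 and 1.31 in WT.

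The balance itself had 2 exceptions in WT. Csgalnact1, an enzyme of chondroitin sulfate synthesis, had a Cast share of 0.463, 0.620 and 0.783 in Dom WT and 0.491, 0.611 and 0.716 in Cast WT, with a difference of 0.0142 ± 0.0267 (SE, limma adjusted p = 0.794). Replicates of both lines covered the same range. In the knockout comparison the difference was 0.0934 (adjusted p = 0.0652) and on days 15 to 35 it was 0.159 (adjusted p = 0.0032), so the gene was not outside the shift in every set of libraries. The knockout call was gained in 3 of 24 fits without 1 library. Nfatc3, a calcium-regulated transcription factor, was read almost only from the Dom allele. Its Cast share was 0.035, 0.047 and 0.070 in Dom WT and 0.015, 0.027 and 0.057 in Cast WT, a difference of 0.0208 ± 0.0130 (adjusted p = 0.328). As a log2 ratio the difference was 0.85 ± 0.49 (adjusted p = 0.282), close to the median of 0.92, with an error too wide for a call. Nfatc3 was the only member whose share difference lay below the shift of the chromosome in both comparisons. On the log2 ratio scale no member did. For X-linked genes the paper removed near monoallelic ratios, which it regarded as probable artifacts of wrongly annotated SNPs. Nfatc3 was the only member that a limit of 0.1 to 0.9 on the Cast-line share removed, which left 449. Whether its share is such an artifact was not tested. The total RNA of Nfatc3 rose by 0.24 in WT (edgeR adjusted p = 0.0222, lost in 3 of 19 fits without 1 library) and by 0.35 in the knockout comparison.

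Clone A3 carried a run of neighbouring genes in which the tilt was missing. The interaction of line with genotype on Cast share called 9 members (limma, 1.98% of all genes), and 5 of them, Tk2, Cklf, Cmtm4, Dync1li2 and Pdp2, are the 5 consecutive measured genes between Cdh11 and Cbfb. Tk2 encodes the mitochondrial thymidine kinase, Cklf a chemokine-like factor, Cmtm4 a MARVEL domain membrane protein, Dync1li2 a light intermediate chain of dynein and Pdp2 a phosphatase of the pyruvate dehydrogenase complex. Their line difference in the knockout clones was smaller than that in WT by 0.125 (adjusted p = 1.66e-06), 0.111 (0.00524), 0.140 (8.21e-15), 0.114 (1.36e-11) and 0.137 (5.85e-05) respectively. In A3 against D5 and G6 alone, 4 of them were not called, with differences of 0.0041 (Tk2), 0.0090 (Cklf), 0.0138 (Cmtm4) and 0.0209 (Pdp2), and Dync1li2 was called with 0.0225 (adjusted p = 0.0063).

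The levels of each gene show where A3 departed. Cmtm4 had a Cast share of 0.580, 0.620 and 0.635 in Dom WT, 0.445, 0.479 and 0.486 in A3, 0.446, 0.465 and 0.476 in Cast WT and 0.431, 0.459 and 0.479 in D5 and G6. Dync1li2 was at 0.571, 0.616 and 0.639 in Dom WT, 0.468, 0.476 and 0.503 in A3 and 0.457, 0.473 and 0.501 in Cast WT. Pdp2 was at 0.530 to 0.632 in Dom WT, 0.407 to 0.488 in A3 and 0.341 to 0.470 in Cast WT. For these 3 genes and for Tk2 and Cklf, no A3 replicate of days 2 to 7 reached the lowest Dom WT replicate, and A3 overlapped the Cast line.

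Total RNA of the run was higher in A3 than in the Cast line knockouts by more than the chromosome's median of 0.53. The log2 fold changes were 0.89 (Tk2), 1.28 (Cklf), 0.73 (Cmtm4), 0.96 (Dync1li2) and 0.86 (Pdp2), against 0.48, 0.58, 0.24, 0.46 and 0.61 in WT. By allele, summed over the 5 genes, Dom allele RNA was 59.8 to 65.8 RPM in Dom WT, 106 to 127 RPM in A3 and 58.1 to 67.1 RPM in Cast WT on days 2 to 7. Cast allele RNA was 89.4 to 113 RPM in Dom WT, 91.4 to 115 RPM in A3 and 51.0 to 64.5 RPM in Cast WT. The A3 run thus had the high Cast level of the Dom line together with a Dom level that no other set reached. Per gene the ratio of A3 to Dom WT was 1.79 to 1.89 for the Dom allele and 0.955 to 1.08 for the Cast allele, and for Cbfb the same ratios were 1.16 and 1.14.

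Taken from Tk2 to Fam96b, the run spans chr8:104226690-104641728 (mm10), which is 415 kb and holds 16 members, 5 of which had enough allelic fragments in every library. Of the weaker genes inside it, Cmtm3 had a Dom allele ratio of A3 to Dom WT of 2.25, Ccdc79 of 1.68, Rrad of 2.43, Car7 of 1.63 and Fam96b of 1.49, from summed allelic fragments of 608 to 10215 over all libraries. Mir297-2, counted over the host region, had a ratio of 0.994 from 783 fragments. Before Tk2, Bean1 had a ratio of 0.859 from 1510 fragments, and Cdh5, the gene before it, had 2.00 from 1654 fragments. The summed Cast share of Cdh5 was 0.490 in A3, 0.618 in Dom WT, 0.352 in Cast WT and 0.350 in D5 with G6. A3 thus lay between the lines for Cdh5, whereas in the run it lay with the Cast line. Bean1 and Cdh5 lay at 0.0938 to 0.168 RPM per allele in Dom WT, and the start of the run is not resolved. Between the run and the nearest measured genes lay 1442 kb on the side of Cdh11 and 529 kb on the side of Cbfb without a gene of enough allelic depth, so the ends are not resolved further. These limits were set after the values were seen.

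The share of the run in A3 was higher on days 35 and 52 than before. Its summed Cast share was 0.511 and 0.494 in the 2 mESC libraries, 0.463 to 0.495 on days 2 to 7, 0.492 on day 15, 0.497 on day 21, 0.531 on day 35 and 0.622 on day 52. The Dom allele stood at 86.3 and 91.0 RPM in mESCs, 105 RPM on day 15, 108 RPM on day 21, 91.6 RPM on day 35 and 46.4 RPM on day 52, where Dom WT was at 48.3 RPM. Genes outside the run moved in the same 2 libraries: the median share of all measured genes past 100 Mb was 0.688 on day 35 and 0.734 on day 52 in A3, and Cbfb was at 0.660 and 0.694, after 0.631 and 0.645 on days 15 and 21. Each late day is 1 library. In the mESC libraries of A3 the share of Tk2 alone was 0.719 and 0.730, and it was also above its later values in D5 (0.671 and 0.727) and G6 (0.634).

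**Figure D4:**
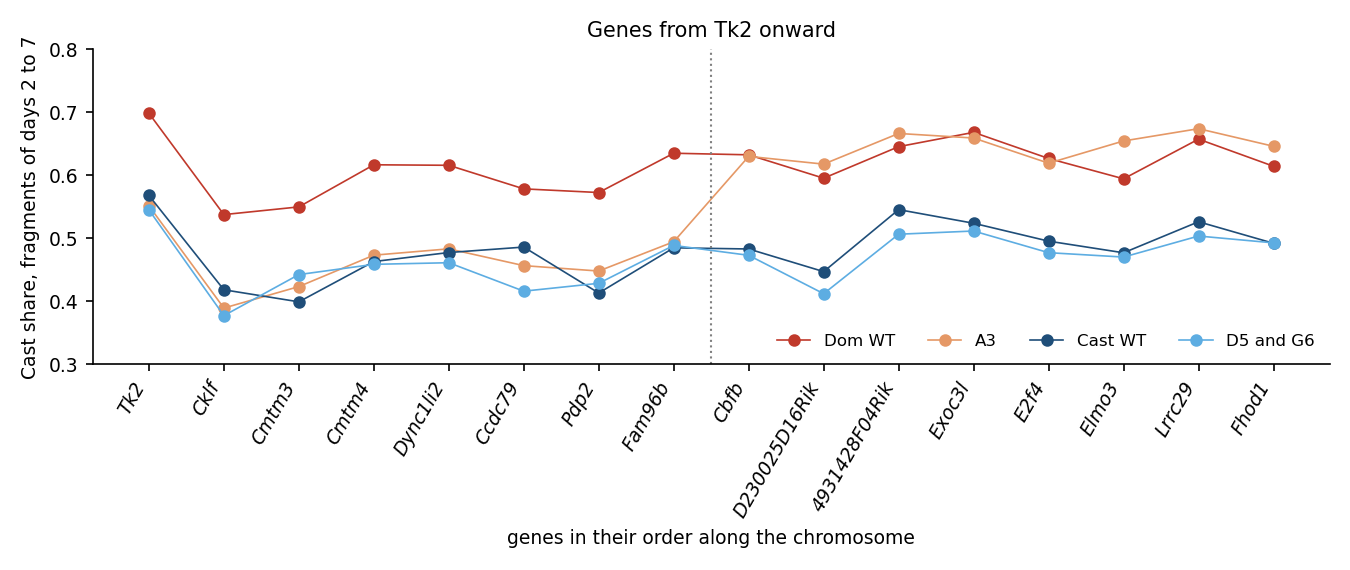
Cast share (y axis from 0.3 to 0.8) of the genes from Tk2 to Fhod1 with at least 2500 allelic fragments, in their order along the chromosome, from the allelic fragments of days 2 to 7 summed over the replicates of Dom WT, A3, Cast WT, and D5 with G6. Left of the dotted line A3 lies with the Cast line (Cmtm4 at 0.473 in A3 and 0.617 in Dom WT), and right of it, from Cbfb on, A3 lies with Dom WT (Cbfb at 0.630 and 0.632).

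Of the other 4 members called for the interaction, all had a larger line difference in the knockout clones. The change was 0.0416 for Fam192a, 0.101 for Tmem231, 0.0879 for Cdh13 and 0.0395 for Galnt2 (limma adjusted p = 0.034, 0.0478, 0.0115 and 0.0274). Cdh13, a cadherin anchored in the membrane by a lipid, had a Cast share of 0.434, 0.469 and 0.536 in Dom WT and 0.501, 0.537 and 0.590 in A3, against 0.321, 0.370 and 0.413 in Cast WT and 0.265, 0.344 and 0.406 in D5 and G6. Its total level spanned 34.7 to 258 RPM in Dom WT. None of the 4 lies in the run.

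Within the first week the tilt held steady. The interaction of line with period, days 5 and 7 against days 2 and 3, called none of the 450 genes in WT (limma, 0% of all genes called, 28 members at an unadjusted p below 0.05) and none in the knockout comparison (0.0127% of all genes called, 32 members unadjusted). On the log2 ratio scale none was called in either. The median change over members was 0.0027 in WT and 0.0012 in the knockout comparison. These p-values do not show that no gene changed.

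Between the first week and days 15 to 35 the interaction called 1 member, Unc5d, a receptor of netrins in migrating neurons (limma, 0.737% of all genes called; 44 members at an unadjusted p below 0.05). Its line difference in Cast share on days 2 to 7 was 0.185 in WT and 0.165 in the knockout comparison, and on days 15 to 35, over all clones, it was 0.0264. In the fit over all clones and both periods the change was -0.136 (adjusted p = 0.0205). In Dom WT its share was 0.673 to 0.808 on days 2 to 7, then 0.727, 0.750 and 0.777 on days 15, 21 and 35. In Cast WT it went from 0.462 to 0.660 on days 2 to 7 to 0.573, 0.731 and 0.933 on the same late days, while G6 was at 0.609, 0.731 and 0.550. The late values of the Cast line therefore spread over a range wider than the shift itself. Besides Unc5d, 7 members were not called on late days (Mcf2l, Zmat4, Gtpbp3, Nr3c2, Cklf, Nfatc3 and Ccsap), with differences from 0.0225 for Nfatc3 to 0.0993 for Mcf2l.

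Total RNA on days 15 to 35 had a median log2 fold change of 0.42 in the Dom line, with 92 of 799 members higher (edgeR, 0.993% of all genes called higher) and none lower (0.362% called lower). At an unadjusted p below 0.05, 396 were higher and 10 lower, and DESeq2 called 257 higher and 5 lower. The number rested on few libraries, since it was 5 without A3 day 21, 6 without A3 day 35, 14 without Dom WT day 35 and 22 without D5 day 21. Without D5 day 15 or day 35, G6 day 15 or day 21, or Cast WT day 21 or day 35, it was 37, 40, 33, 50, 48 and 55 in that order. The median ranged from 0.39 to 0.46 over the same fits. On these days the fibroblast genes stood at 243 to 9318 RPM in Cast WT, 2933 to 16141 RPM in D5 and 1208 to 13914 RPM in G6, against 385 to 2220 RPM in Dom WT and 768 to 5068 RPM in A3, and their part in the result was not tested.

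On days 35 and 52 the A3 library lay furthest above Dom WT on the distal chromosome. In bins of 20 Mb, the 2 bins past 100 Mb had a median Cast share of 0.686 and 0.691 in A3 on day 35 and 0.732 and 0.736 on day 52, while the bins before 100 Mb lay at 0.656 to 0.671 and 0.667 to 0.690. The distal minus proximal difference was -0.00917 on day 15, 0.000603 on day 21, 0.0282 on day 35 and 0.0545 on day 52 in A3, against -0.0146 to 0.00304 in Dom WT on days 15 to 35 and -0.00593 on day 52. On days 2 to 7 it was -0.012 to -0.00501 in the 8 A3 replicates. The last bin, past 120 Mb, was on day 21 already at 0.672 in A3 and 0.647 in Dom WT. The bin before it was then at 0.653 and 0.656. Genes before 100 Mb were also higher on day 52, with a median share of 0.680 in A3 and 0.663 in Dom WT. On day 52 members took 4.14% of the fragments in A3 and 4.83% in Dom WT, both below the earlier range of the Dom line, and fibroblast genes stood at 10166 RPM in A3 and 8116 RPM in Dom WT. Each of these days is 1 library, so the values have no replicate check, and the limit at 100 Mb was set after they were seen.

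**Figure D5:**
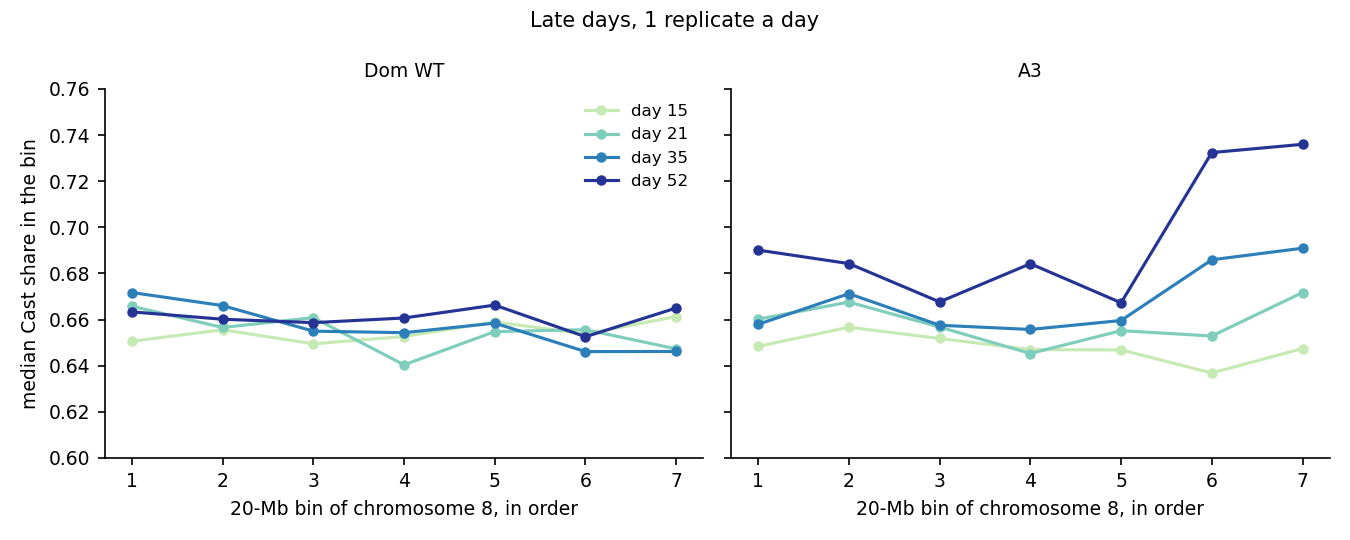
Median Cast share in 20-Mb bins of chromosome 8, in order along the chromosome, in the late libraries of Dom WT (left) and A3 (right), 1 replicate a day. In A3 bins 6 and 7 rise to 0.686 and 0.691 on day 35 and to 0.732 and 0.736 on day 52, while Dom WT stays between 0.640 and 0.672 in every bin.

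The members without enough allelic depth can be described only in sum. Of the 629 such genes, 25 had no fragment and 37 no allelic fragment in any library. With at least 30 allelic fragments summed over Dom WT and at least 30 over Cast WT on days 2 to 7, 334 could be given a pooled share, and 322 of them were higher in Dom WT, with quartiles of the difference at 0.107 and 0.180. The depth of a single weak gene does not show whether it deviates.

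Other chromosomes place these values. The median Cast share over the remaining autosomes was 0.473 to 0.489 in all replicates of both lines. Chromosome 5 was tilted the other way between the lines, with a median share difference of -0.173 and a median total log2 fold change of -0.41 in WT (12 genes higher, 558 lower). Chromosome 12 had a share near 0.64 in both lines (0.617 to 0.669 in the Dom line and 0.620 to 0.674 in the Cast line) and a median difference of -0.000152 in share and -0.003 in total RNA. The WT comparisons of the 3 chromosomes share their samples.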

How the data were processed

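ChrRNA-seq libraries of WT and SmcHD1 knockout mESCs and NPCs were used. Per the file headers, the deposited values are counts of whole fragments per gene over whole transcripts, introns included, with strand used: all fragments, those of the Cast allele and those of the Dom allele. The authors removed ribosomal reads with Bowtie2 2.3.2, aligned pairs with STAR 2.4.2a to SNP-masked mm10, split alleles by SNPs and counted with featureCounts. The tables of X-linked allelic ratios were not used. Of 72 libraries, runs R1 and R2 of a replicate were summed, which left 65 replicates. No 2 libraries held identical counts.

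Cast share was Cast over Cast plus Dom fragments, for autosomal genes with at least 30 allelic fragments in every library, compared with limma 3.58.1 (lmFit, eBayes with trend; day plus line). For total and allele counts the quasi-likelihood test of edgeR 4.0.16 was used with TMM factors, after filterByExpr for totals. Adjusted p-values are those of Benjamini and Hochberg over all genes of a fit, with calls below 0.05. R 4.3.3 was used, and the fits were tested on simulated data. RPM values are fragments per 1000000 counted. Per-replicate medians were compared by exact permutation of the line within day. By the correlation of their deviations, replicate numbers paired D5 with G6 (0.410 to 0.815). Across lines the correlations had both signs (-0.648 to 0.407), so numbers gave no constant pairing there, although shared deviations on single days are not excluded. Allele counts carry no correction for mapping bias beyond the masking, so a gene's own share is less certain than its difference between lines.

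The members and lists were chosen with earlier results of these data known. Named genes were the list members, the 10 with the most allelic fragments, the 5 with the largest and the 5 with the smallest share difference, those below or beyond the chromosome's shift, and the 5 with the highest and lowest total fold change called in both comparisons. The genes of the run in A3, those called for interactions and Maf were named after their values were seen. Alternatives were other allelic minimums, only genes of moderate share, the log2 allele ratio with 0.5 added to each allele, edgeR on allele counts, a replicate block, other scalings, DESeq2 1.42.0, no filter, separate runs, each knockout clone alone and leaving out each replicate. The limits at 80 Mb and 100 Mb, averaging D5 with G6, leaving out all Cast WT replicate 1 libraries, and the log2 ratio for interactions and dosage classes were chosen after seeing the data. The values of 1 gene are not reported here.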

Additional observations from a re-analysis of the deposited data

Results flagged for a closer look

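A test of the difference between line effects picked out 10 values. The line difference in Cast share was smaller in the knockout clones than in WT for 5 neighbouring genes, by -0.1246 in Tk2, -0.1106 in Cklf, -0.1402 in Cmtm4, -0.114 in Dync1li2 and -0.1366 in Pdp2. It was larger in the knockout clones by 0.04155 in Fam192a, 0.1009 in Tmem231, 0.08794 in Cdh13 and 0.03954 in Galnt2. For Unc5d the line difference changed by -0.1363 from days 2 to 7 to days 15 to 35. On the log2 ratio scale the call of Tmem231 was lost (limma adjusted p = 0.0641), and Vegfc (-0.36, adjusted p = 0.0471) and Psmd7 (0.39, adjusted p = 0.046) were called in addition. Tmem231 had the fewest allelic fragments of the 10 genes. All knockout libraries of the Dom line are of clone A3, so the loss of SmcHD1 and other properties of A3 cannot be told apart.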

How the results depend on the processing

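The Cast share counts and their direction held under the alternatives run for them. When 1 library was left out, 446 to 448 of 450 genes were higher in Dom WT, 444 or 445 in A3 and 439 to 444 on late days. Total RNA counts of higher genes were 485 to 519 in WT and 513 to 551 in the knockout comparison in the same fits, with 3 to 11 and 2 to 7 lower, and 5 to 102 higher on late days. Library totals gave medians of 0.56 (total, WT), 0.96 (Cast allele, WT), 0.053 (Dom allele, WT, 45 higher and 23 lower) and 0.55 (total, late, 205 higher), and 12 lower Dom alleles in the knockout comparison. They moved the median of all genes by 0.0953 in WT and 0.131 on late days, and members minus all genes stayed at 0.466 and 0.433. DESeq2 called 12 lower in WT, 6 lower in the knockout comparison and 257 higher with 5 lower on late days. Without a filter 52 were higher on late days, where 1030 members were tested. Without all Cast WT replicate 1 libraries the WT share median was 0.158 and 14 totals were lower. Pooled over genes, A3 minus Dom WT was -0.000774 in place of 0.00101 (exact permutation test, p = 0.301), a change of sign within replicate error. Numbers paired D5 with G6 and gave no constant pairing across lines. With the replicate block 446 shares and 522 totals (9 lower) were higher in WT and 444 shares and 568 totals (3 lower) in the knockout comparison. Of 24203 single-gene values under alternatives, 23402 kept their side of the threshold, 497 lost and 304 gained a call. No value that was called in either fit changed its direction, and direction was not counted for genes uncalled in both. The log2 allele ratio and edgeR on allele counts were not among these single-gene values. Causes were not tested. Depth limits single genes: 629 members had too few allelic fragments for a share.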
